A study of Mus musculus with 8 samples.

Results

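The 38 genes described here make the lysosome work: cathepsins and other proteases (10 genes), glycosidases (7), lipid hydrolases with the precursors of saposins and granulins (4), membrane proteins (4), the TFEB family of transcription factors (3) and subunits of the vacuolar proton pump (4 of its membrane sector V0 and 6 of its catalytic sector V1). They were taken from a list of gene symbols, matched to gene identifiers and read as the sum of each gene's table rows. All 38 were found among the 55487 gene identifiers of the tables, and all 38 passed the filter on low values that left 14172 genes for testing. The study sequenced RNA of epididymal white adipose tissue, the fat pad next to the testis, from obese male C57BL/6 mice on a high-fat diet. The control group (WT, n = 4: mice 2, 3, 4 and 5) carried Slc16a1 flox/flox alleles without Cre. The other group (AKO, n = 4: mice 3, 8, 9 and 11) carried the same floxed alleles with AP2-Cre, a genotype the labels also write as Slc16a1 -/-. Slc16a1 encodes MCT1, a carrier of lactate, pyruvate and ketone bodies. AP2 is the promoter of Fabp4, a gene of adipocytes that macrophages and some endothelial cells also use, so the cells with the deletion need not be adipocytes alone. Neither the ages of the mice nor the length of the diet is known from the labels.

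Lysosomes are acidic vesicles in which proteins, sugar chains and lipids are taken apart. The proton pump acidifies them with the energy of ATP, and membrane proteins shield the vesicle's wall and let ions and digestion products out. TFEB, TFE3 and MITF switch on many lysosomal genes by binding a short DNA element around CACGTG, an element that other factors of the same class also read. In obese fat, macrophages that clear dying adipocytes are rich in lysosomes.

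Promoter sequences are shown first because this element recurs in the list. The genes were chosen as lysosomal, a class known to carry the element, so its share here is not independent of the choice. RefSeq promoter windows on GRCm38.p6, from 250 bases before to 50 bases after the gene start, were matched for 33 of the 38 genes. Ctsb, Ctsh, Atp6v1b2, Atp6v1c1 and Atp6v1h were not matched. CACGTG, which reads the same on both strands, was in the windows of 13 of the 33 genes (39.4%), against 8.09% of all 27025 genes with a window. The longer GTCACGTG, searched on both strands and containing the shorter word, was in 9 of 33 (27.3%) against 2.55% of all genes. The 13 genes with CACGTG were Ctsa, Ctsd, Ctsf, Ctsl, Gaa, Gla, Glb1, Naglu, Lamp1, Mcoln1, Atp6v0b, Atp6v0d1 and Atp6v1a. The 150 bases before the start are given below for 5 genes, of which Ctss lacks the word and the others have it. They run 5′ to 3′ on the gene's own strand, with CACGTG in capitals.
Mcoln1, chr8:3500369-3500518, plus strand: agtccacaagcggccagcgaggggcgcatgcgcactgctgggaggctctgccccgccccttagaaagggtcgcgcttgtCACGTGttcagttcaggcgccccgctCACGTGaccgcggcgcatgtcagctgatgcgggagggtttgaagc
Lamp1, chr8:13159011-13159160, plus strand: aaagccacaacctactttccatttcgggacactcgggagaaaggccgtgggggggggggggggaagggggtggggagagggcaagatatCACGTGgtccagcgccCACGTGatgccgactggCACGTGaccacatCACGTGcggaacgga
Ctsd, chr7:142387828-142387977, minus strand: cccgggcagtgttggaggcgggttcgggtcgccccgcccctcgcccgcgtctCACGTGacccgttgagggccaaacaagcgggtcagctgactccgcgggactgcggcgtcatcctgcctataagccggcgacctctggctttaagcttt
Gaa, chr11:119267813-119267962, plus strand: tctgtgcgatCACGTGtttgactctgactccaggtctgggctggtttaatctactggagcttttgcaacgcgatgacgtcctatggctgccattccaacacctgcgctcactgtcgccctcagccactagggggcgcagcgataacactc
Ctss, chr3:95526636-95526785, plus strand: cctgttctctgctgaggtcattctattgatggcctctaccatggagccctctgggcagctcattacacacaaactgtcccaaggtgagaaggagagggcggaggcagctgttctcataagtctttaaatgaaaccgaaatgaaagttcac
Lamp1 had 4 copies of the word in these 150 bases, Mcoln1 had 2, Ctsd and Gaa had 1 each, and Ctss had 0. A match of letters is a description of the sequence and not a measured binding site.

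Across the 8 mice the tables listed between 13968 and 14884 genes at 1 TPM or more, with 6.69% to 8.99% of TPM from mitochondrial genes. TPM is a level scaled to transcript length and to the library's total, so levels of different genes can be compared, but it keeps no read depth, and the depth is unknown. The summed level of Slc16a1 was 15.7 to 28.5 TPM in WT and 21.5 to 27.1 TPM in AKO, so this total does not tell the groups apart, and WT and AKO are the labels' names. Nothing in the labels gives a batch. The limma p-values below set the group difference against the spread between these mice, and the exact permutation p-values come from rearranging the mice. Among the lysosomal genes, WT mouse 4 was the lowest of the 8 for 32 of the 38 genes, while AKO mouse 9 was the highest for 30. In bulk tissue, fewer cells of a type and less RNA per cell cannot be told apart.

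Lysosomal genes were a sizeable part of the tissue's RNA, from 0.957% of all TPM in WT mouse 4 to 2.50% in AKO mouse 9. Listed from the lowest mouse number to the highest, as are all per-mouse values that follow, the summed level of the 38 genes was 15826, 21159, 9573 and 13855 TPM in the WT group. In the AKO group it was 21018, 17362, 24959 and 16257 TPM. The groups overlapped widely: WT mouse 3 was above 3 of the 4 AKO mice. Psap, the precursor of the saposins that help degrade sphingolipids, had the highest level (mean of all mice 3409 TPM). The aspartic protease Ctsd followed at 2958 TPM, then the cysteine proteases Ctsb at 2272 TPM and Ctsl at 1750 TPM, and these 4 genes held 59.4% of the summed level. Their ranges overlapped across mice, but within every mouse Ctsd was above Ctsb and Ctsb above Ctsl. Psap was above Ctsd in every mouse except WT mouse 4 (1601 against 1622 TPM). At the other end stood the regulators Tfeb (20.2 TPM) and Mitf (10.5 TPM).

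**Figure D1:**
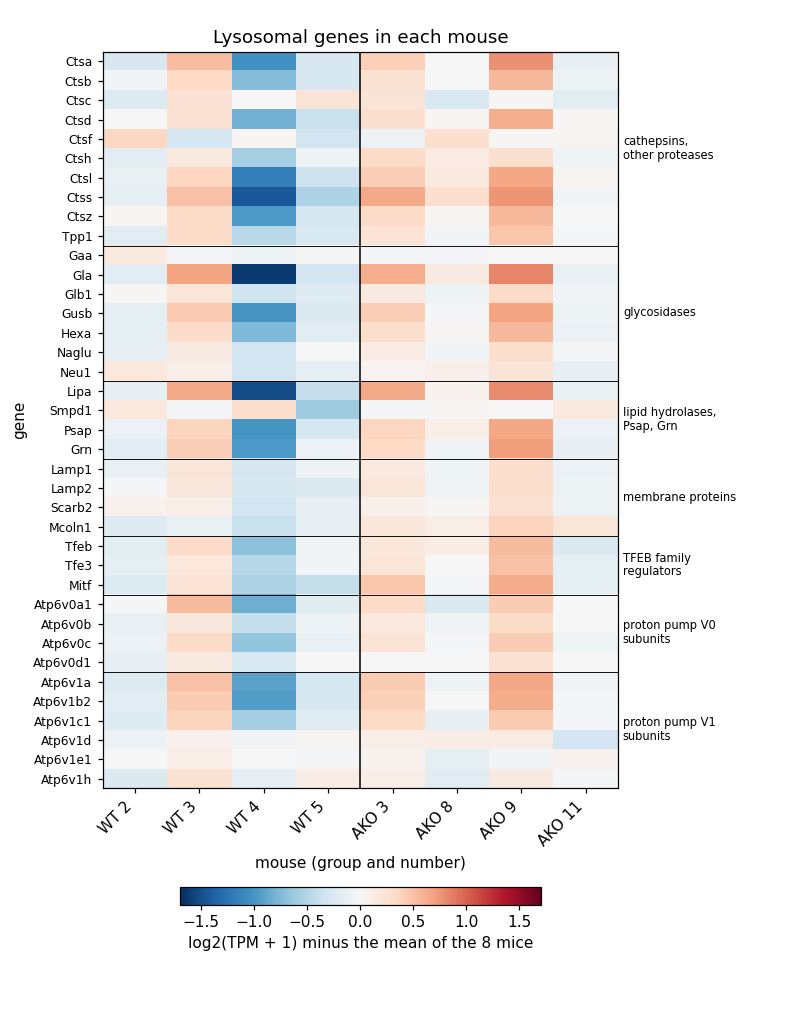
Level of each of the 38 lysosomal genes (vertical axis, grouped by role) in each mouse (horizontal axis), coloured by log2(TPM + 1) minus the mean of the 8 mice for that gene. WT mouse 4 is blue for most genes and AKO mouse 9 red, WT mouse 3 and AKO mouse 3 look alike, and Gaa and Atp6v1e1 are nearly white throughout.

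The comparison of AKO with WT asks whether lysosomal RNA differs in the fat of mice given Cre. None of the 38 genes passed a false discovery rate of 0.05 in limma over all 14172 genes, where 4 genes (0.0282%) passed. At an unadjusted p below 0.05, 1 lysosomal gene (Mcoln1) was found, against 4.75% of all genes tested. The difference (AKO minus WT) was above 0 for 35 of the 38 genes, against 53.8% of all genes, and the median difference was 0.31 on the log2(TPM + 1) scale, against 0.02 over all genes. Only Ctsc, Gaa and Atp6v1e1 had a difference below 0. Most of the 38 genes rose and fell together over the mice, and the list was chosen with earlier results of these data known. The 35 differences above 0 are therefore not independent of one another or of the data. Individual adjusted p-values ran from 0.533 to 0.982. The median depended on single mice: it was 0.17 without WT mouse 4, 0.19 without AKO mouse 9 and 0.47 without WT mouse 3. Without WT mouse 3, 21 of the 38 genes had an unadjusted p below 0.05, against 13.7% of all genes in that fit, and the lowest adjusted p was 0.316.

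**Figure D2:**
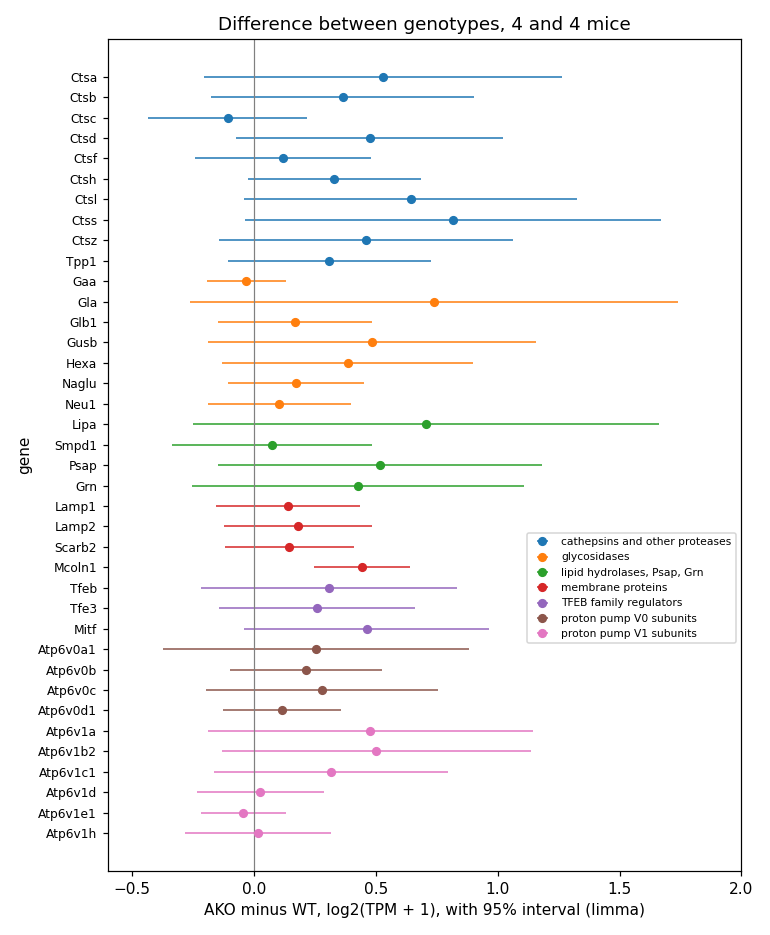
Difference between AKO and WT for each gene (points, log2(TPM + 1), AKO minus WT) with its 95% interval from limma (bars), coloured by role; 4 mice per group. Most points lie to the right of 0 and most bars cross 0, while the bar of Mcoln1, from 0.24 to 0.64, does not.

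Mcoln1 encodes TRPML1, a channel that lets calcium and other cations out of the lysosome. It was measured at 38.7, 41.9, 34.6 and 40.2 TPM in the WT group and at 52.0, 49.2, 59.2 and 52.3 TPM in the AKO group. Every AKO mouse was above every WT mouse. Groups failed to overlap with AKO above for 1 of the 38 genes, against 1.11% of all genes, and in either direction for 2.44% of all genes. The mean was 38.9 ± 3.14 TPM (SD, n = 4) in WT and 53.2 ± 4.28 TPM (SD, n = 4) in AKO. The log2 difference was 0.44 (SE 0.087, unadjusted p 0.000766 by limma), which ranked 19 among all genes. It did not pass the correction over all genes (adjusted p = 0.533), and the exact permutation p was 0.0286, the smallest that the 70 arrangements of 4 and 4 mice can give.

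Mcoln1 has 11 table rows, which the files do not name by transcript, and the difference lay mostly in 1 of them. Row 1, which held 68.7% of the gene's level, was at 30.7 ± 2.90 TPM in WT and 32.5 ± 2.56 TPM in AKO (SD, n = 4 each, two-sided exact permutation p = 0.343). Row 4 had a listed value of 0 for 3 of the WT group, the exception being mouse 5 with 4.96 TPM, and stood at 8.22, 10.4, 16.2 and 12.2 TPM in the AKO group. Its adjusted p was 0.497 by limma over 33323 rows, of which 0.021% passed and 5.56% had an unadjusted p below 0.05. In 2.3% of all rows, and in 4 of the 135 rows tested of the 38 genes, the groups did not overlap and the unadjusted p was below 0.05. With row 4 left out, the gene stood at 38.7, 41.9, 34.6 and 35.2 TPM in WT and at 43.8, 38.8, 43.1 and 40.1 TPM in AKO. These groups overlap, and the log2 difference of the remainder was 0.14 (exact permutation p = 0.114). How many rows of any gene were above 0 also differed between the groups, from 63143 to 66466 in WT and from 66578 to 70720 in AKO, and the part of this in the Mcoln1 values was not tested. The choice of row 4 was made after its values were seen.

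**Figure D3:**
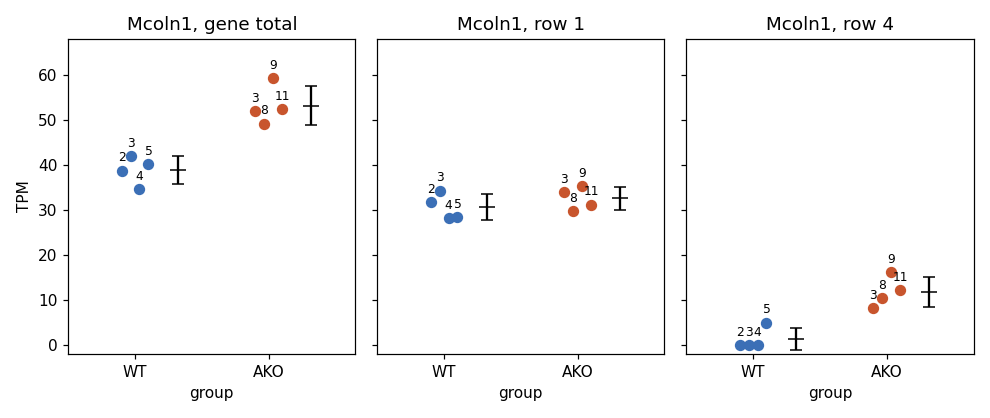
Mcoln1 level in TPM (vertical axis) in each WT and AKO mouse (points, with mouse numbers) for the gene's summed rows, for row 1 and for row 4; black bars give the mean and SD of each group. The AKO mice lie above all WT mice in the sum and in row 4, and overlap them in row 1.

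Cathepsins and other proteases had a median difference of 0.41, above 0 for 9 of 10 genes, with none called and none at an unadjusted p below 0.05. Ctss, a cysteine protease of antigen-presenting cells that works also at neutral pH, was at 732, 1157, 303 and 571 TPM in the WT group and at 1280, 1004, 1380 and 796 TPM in the AKO group. WT mouse 3 was as high as the AKO mice, and WT mouse 4 was the lowest by a wide margin. The log2 difference was 0.82 (SE 0.37, adjusted p = 0.831 by limma). Ctsl, a cysteine protease of lysosomal protein breakdown, was at 1503, 2129, 735 and 1285 TPM in WT and at 2192, 1845, 2602 and 1709 TPM in AKO. Again WT mouse 3 stood within the AKO range. The log2 difference was 0.64 (SE 0.30, adjusted p = 0.831). Ctsd was at 2829, 3389, 1622 and 2192 TPM in WT and at 3454, 2922, 4371 and 2889 TPM in AKO, a log2 difference of 0.48 (SE 0.24, adjusted p = 0.831). Its lowest AKO mouse was above 3 of the 4 WT mice, but WT mouse 3 was above 2 AKO mice.

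The other proteases varied in the same way with 2 exceptions. Ctsb, Ctsz, Ctsh and the serine protease Tpp1, which trims tripeptides, differed by 0.36, 0.46, 0.33 and 0.31 on the log2 scale, and Ctsa, the carboxypeptidase that protects other lysosomal enzymes, by 0.53. Ctsc, which activates granule proteases of immune cells, differed by -0.11 and ranged only from 85.0 to 121 TPM. Ctsf, another cysteine protease, ranged from 54.4 to 87.9 TPM with its highest value in WT mouse 2. Some of these levels can hold reads of neighbours. Of the Ctsd sequence, 36.6% of its 50-base words also occur in Gm49369 on the same strand, a gene listed at 2.73 to 16.1 TPM. Of the Ctsa sequence, 15.7% lies opposite other genes, chiefly Pltp, at 370 to 1109 TPM, and the labels do not say whether the counting used strand. Opposite-strand words were 28.0% for Ctsl, 15.5% for Ctsb, 10.6% for Hexa and 7.11% for Lamp1, against genes at 28.6 TPM or less.

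Glycosidases, which remove sugars from glycoproteins, glycolipids and glycosaminoglycans, had a median difference of 0.17, above 0 for 6 of 7 genes, with none called and none at an unadjusted p below 0.05. Hexa, the alpha chain of beta-hexosaminidase, was at 254, 348, 167 and 247 TPM in the WT group and at 346, 284, 413 and 261 TPM in the AKO group. Gla, alpha-galactosidase, was at 19.6, 36.4, 6.63 and 17.9 TPM in WT and at 35.1, 25.1, 40.9 and 20.8 TPM in AKO. For both genes WT mouse 3 was above 3 of the 4 AKO mice and WT mouse 4 was the lowest. The log2 differences were 0.38 (SE 0.23) for Hexa and 0.74 (SE 0.44) for Gla, each with an adjusted p of 0.831. Gla spread most of all 38 genes, 6.17-fold from the lowest to the highest mouse. Gaa, the acid alpha-glucosidase that digests glycogen, spread least, 1.19-fold, at 76.3 ± 5.98 TPM in WT and 74.5 ± 1.01 TPM in AKO (SD, n = 4 each). Glb1 (36.2 to 57.6 TPM), Gusb (86.9 to 277 TPM), Naglu (33.1 to 51.5 TPM) and the sialidase Neu1 (24.9 to 36.6 TPM) were lowest in WT mouse 4 and highest in AKO mouse 9.

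The lipid group had a median difference of 0.47, above 0 for all 4 genes, with none called and none at an unadjusted p below 0.05. Psap was at 3026, 4228, 1601 and 2623 TPM in the WT group and at 4191, 3493, 5087 and 3026 TPM in the AKO group. Lipa, the acid lipase that hydrolyses cholesteryl esters and triglycerides inside lysosomes, was at 215, 379, 84.5 and 184 TPM in WT and at 379, 252, 424 and 224 TPM in AKO. WT mouse 3 and AKO mouse 3 had nearly the same Lipa level, and WT mouse 4 was 5.02-fold below AKO mouse 9. The log2 differences were 0.52 (SE 0.29) for Psap and 0.71 (SE 0.42) for Lipa, each with an adjusted p of 0.831. Grn, the precursor of granulins, ranged from 227 to 736 TPM with a log2 difference of 0.43. Smpd1, acid sphingomyelinase, differed from the rest of the group: its highest value, 75.0 TPM, was in WT mouse 4 and its lowest, 39.6 TPM, in WT mouse 5.

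The membrane proteins had a median difference of 0.16, above 0 for all 4 genes, and the 3 beside Mcoln1 varied little. Lamp1, a coat protein of the lysosomal membrane, was at 657, 822, 587 and 676 TPM in the WT group and at 798, 680, 869 and 669 TPM in the AKO group. Lamp2, its relative that also serves in autophagy, was at 219, 257, 185 and 190 TPM in WT and at 260, 215, 276 and 212 TPM in AKO. The groups overlapped in both, with WT mouse 3 above 3 AKO mice for Lamp1 and above 2 for Lamp2. The log2 differences were 0.14 (SE 0.13, adjusted p = 0.855) and 0.18 (SE 0.13, adjusted p = 0.831). Scarb2, the receptor that carries glucocerebrosidase to lysosomes, ranged from 67.7 to 102 TPM with a log2 difference of 0.14.

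The regulators had differences above 0 for all 3 genes, with a median of 0.31, none called and none at an unadjusted p below 0.05. Mitf was at 8.37, 12.0, 6.72 and 7.38 TPM in the WT group and at 14.4, 9.89, 16.1 and 8.92 TPM in the AKO group. Tfe3 was at 27.6, 34.9, 21.6 and 29.6 TPM in WT and at 35.5, 30.5, 43.8 and 27.2 TPM in AKO. Both genes overlapped between groups, with AKO mouse 11 inside the WT range. The log2 differences were 0.46 (SE 0.22) for Mitf and 0.26 (SE 0.18) for Tfe3, and 0.31 (SE 0.23) for Tfeb, which ranged from 11.7 to 28.9 TPM; each had an adjusted p of 0.831. These are RNA levels: the activity of the factors, which is set largely by phosphorylation and their place in the cell, was not measured.

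The V0 sector of the proton pump carries protons through the membrane. Its 4 genes had a median difference of 0.23, all above 0, with none called and none at an unadjusted p below 0.05. Atp6v0c, the main subunit of the rotating ring, was at 527, 710, 354 and 517 TPM in the WT group and at 664, 551, 764 and 534 TPM in the AKO group. Atp6v0b, another ring subunit, was at 222, 277, 184 and 228 TPM in WT and at 276, 230, 302 and 243 TPM in AKO. WT mouse 3 was exceeded only by AKO mouse 9 for both ring subunits. The log2 differences were 0.28 (SE 0.21) for Atp6v0c and 0.21 (SE 0.14) for Atp6v0b, each with an adjusted p of 0.831. Atp6v0a1, a subunit of the proton path, ranged from 106 to 277 TPM with a difference of 0.26, and Atp6v0d1, which joins the ring to the central stalk, from 120 to 171 TPM with a difference of 0.12. Of the Atp6v0c sequence, 12.2% of 50-base words occur in its pseudogenes, which were listed at 0.35 TPM or less.

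The V1 sector splits ATP. Its 6 genes had a median difference of 0.17, above 0 for 5, with none called and none at an unadjusted p below 0.05, and they divided into genes that varied between mice and genes that hardly did. Atp6v1b2, part of the ATP-binding head, was at 195, 298, 114 and 179 TPM in the WT group and at 294, 221, 343 and 217 TPM in the AKO group. Atp6v1a, the catalytic subunit, was at 96.5, 161, 59.9 and 91.9 TPM in WT and at 154, 107, 181 and 109 TPM in AKO. As for Lipa and Psap, WT mouse 3 came next after AKO mouse 9 in both. The log2 differences were 0.50 (SE 0.28) for Atp6v1b2 and 0.48 (SE 0.29) for Atp6v1a, each with an adjusted p of 0.831. Atp6v1e1, a subunit of the outer stalk and the most abundant V1 gene of the list, was at 263, 284, 262 and 257 TPM in WT and at 272, 234, 255 and 275 TPM in AKO. Its highest and lowest mouse differed only 1.21-fold, and its log2 difference was -0.04 (SE 0.077, adjusted p = 0.917). Atp6v1c1, a stalk subunit, ranged from 60.8 to 125 TPM (difference 0.32), while Atp6v1d (35.4 to 49.0 TPM), of the central stalk, and the regulatory Atp6v1h (81.3 to 116 TPM) had differences of 0.03 and 0.02.

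The spread of the lysosomal genes over mice was set beside markers of the cells in the pad. The macrophage score, the mean log2(TPM + 1) of 14 macrophage markers of which none is among the 38 genes, stood at 6.79, 7.33, 6.17 and 6.82 in the WT group and at 7.30, 7.13, 7.60 and 6.85 in the AKO group. WT mouse 4 had the lowest score and AKO mouse 9 the highest, as for most lysosomal genes. The summed level of the 14 markers was 2578 to 5889 TPM in WT and 4110 to 7164 TPM in AKO. Of the 14, 13 had a difference above 0 (median 0.45) with none called. An unadjusted p below 0.05 was found for 1 of the 14, against 4.75% of all genes. The groups did not overlap for 1 of the 14, against 2.44% of all genes: Aif1, named after its values were seen, at 12.1 to 16.7 TPM in WT and 17.0 to 24.0 TPM in AKO. Adgre1, the gene of F4/80, was at 118 ± 69.7 TPM in WT and 189 ± 63.9 TPM in AKO, and Csf1r, the receptor that keeps macrophages alive, at 141 ± 62.9 and 175 ± 51.0 TPM (SD, n = 4 each). Trem2, a marker of the lipid-associated macrophages of obese fat, was at 285 ± 191 TPM in WT and 548 ± 203 TPM in AKO (SD, n = 4 each). All 8 markers of those cells had a difference above 0 (median 1.07), with none called. An unadjusted p below 0.05 was found for 2 of the 8, against 4.75% of all genes. The 8 markers summed to 1369 to 6996 TPM in WT and 4303 to 8094 TPM in AKO.

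The adipocyte score, over 14 markers, ran the other way: 9.59, 9.01, 9.94 and 9.65 in WT and 9.06, 9.54, 9.01 and 9.53 in AKO. Its markers summed to 13188 to 23196 TPM in WT and 12953 to 17790 TPM in AKO, and 12 of 14 had a difference below 0 (median -0.17) with none called and 1, Plin1, a coat protein of lipid droplets, at an unadjusted p below 0.05. Adipoq, the adipocyte gene of adiponectin, stood at 1864 to 5170 TPM and Plin1 at 703 to 1160 TPM over the 8 mice. Markers of other cells were set beside these, with none called between the groups and some passing with the macrophage score. Over all genes tested, 4.75% had an unadjusted p below 0.05 between the groups and 16.0% passed with the macrophage score. Fibroblast and progenitor markers had a difference above 0 for 7 of 7 genes (median 0.33), with none called and 1 at an unadjusted p below 0.05. They summed to 1358 to 2458 TPM in WT and 1738 to 2573 TPM in AKO, and 4 of the 7 passed with the macrophage score (median r 0.89). Mast cell markers had a difference above 0 for 4 of 4 genes (median 0.75), with none called and 1 at an unadjusted p below 0.05, and 2 of the 4 passed with the macrophage score. They summed to 18.7 to 37.7 TPM in WT and 26.9 to 68.3 TPM in AKO. Endothelial markers summed to 287 to 496 TPM in WT and 328 to 433 TPM in AKO, with none called. Their differences were below 0 for 4 of 5 genes (median -0.10), and none passed with the macrophage score (median r -0.71). Neutrophil markers summed to 16.5 to 60.6 TPM in WT and 28.8 to 69.98 TPM in AKO, with none called. Those of the mesothelium summed to 52.6 TPM or less and those of T cells to 18.02 TPM or less, again with none called. B cell markers summed to 3.75 to 6.65 TPM in WT and 6.74 to 10.13 TPM in AKO. Of these 4 genes 2 were tested, both with a difference above 0 (median 0.46). None was called, 1 had an unadjusted p below 0.05, and the groups overlapped for each gene tested. The part of any of these cells in the lysosomal values was not tested. Markers of the epididymis, the organ next to this fat pad, summed to 7.57 TPM in WT mouse 4 and 4.51 TPM in WT mouse 3. In every other mouse they summed to 0.63 TPM or less. Osteoclast markers, listed because those cells are rich in proton pump, summed to 13.3 TPM or less, with Calcr at 0.02 TPM or less.

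Across the 8 mice, 29 of the 38 lysosomal genes correlated with the macrophage score at a false discovery rate of 0.05 (Pearson, exact permutation over all pairings, Benjamini-Hochberg over 14172 genes), all positively. Of all genes tested 16.0% passed, and 12.1% with a positive sign. The median r of the 38 genes was 0.95, against 0.12 over all genes. Ctss had r = 0.97 (exact permutation p = 0.000149) and rho = 0.95 (exact permutation p = 0.00114). Atp6v1b2 had r = 0.98 (exact permutation p = 7.44e-05) and rho = 0.98 (exact permutation p = 0.000397). By Spearman's rho 23 of the 38 passed. Over all genes, 4504 had an unadjusted p below 0.05, so the relation is shared with many genes that are not lysosomal.

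The number of calls depended on which mice were in the test, while r was above 0 for 35 or 36 of the 38 genes in every setting run. Leaving out WT mouse 4 left none of the 38 genes past the correction, with a median r of 0.92 and 28 genes at an unadjusted p below 0.05, against 21.2% of all genes. Leaving out any of the other 7 mice kept 21 to 29 of the 38. Without WT mouse 4 and AKO mouse 9, the mice farthest from the median score, the median r was 0.88, none passed and 26 of the 38 had an unadjusted p below 0.05, against 15.3% of all genes. With each group centred on its own mean the median r was 0.94, none passed and 31 had an unadjusted p below 0.05, against 26.3% of all genes. The counts of 0 in these last settings cannot be set beside the others, because the smallest exact permutation p is 0.00139 over 6 mice and 0.00174 within groups, and 394 or 493 genes would have to reach it before any could pass. Among the deletions of single mice, the calls thus depended on WT mouse 4. Without it the lowest adjusted p, also that of Ctsa and Hexa, was 0.0633 (exact permutation over 7 mice), little above the threshold of 0.05.

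The 9 genes that did not pass with the macrophage score were Ctsc (r = 0.27), Ctsf (-0.18), Gaa (0.01), Neu1 (0.81), Smpd1 (-0.27), Mcoln1 (0.78), Atp6v1d (0.56), Atp6v1e1 (0.01) and Atp6v1h (0.62). All 4 V0 genes passed, with a median r of 0.93, and 3 of the 6 V1 genes, with a median r of 0.78; whether the sectors differ was not tested. The r of Smpd1 rested on single mice: it was -0.96 without WT mouse 5 and 0.13 without WT mouse 4. With the adipocyte score the same 29 genes passed, all negatively, against 18.0% of all genes in either direction and 13.1% with a negative sign. The median r with that score was -0.93, and by Spearman's rho 11 of the 38 passed. The scores are themselves related (r = -0.93 between them over 8 mice), so the relations are not independent of each other.

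**Figure D4:**
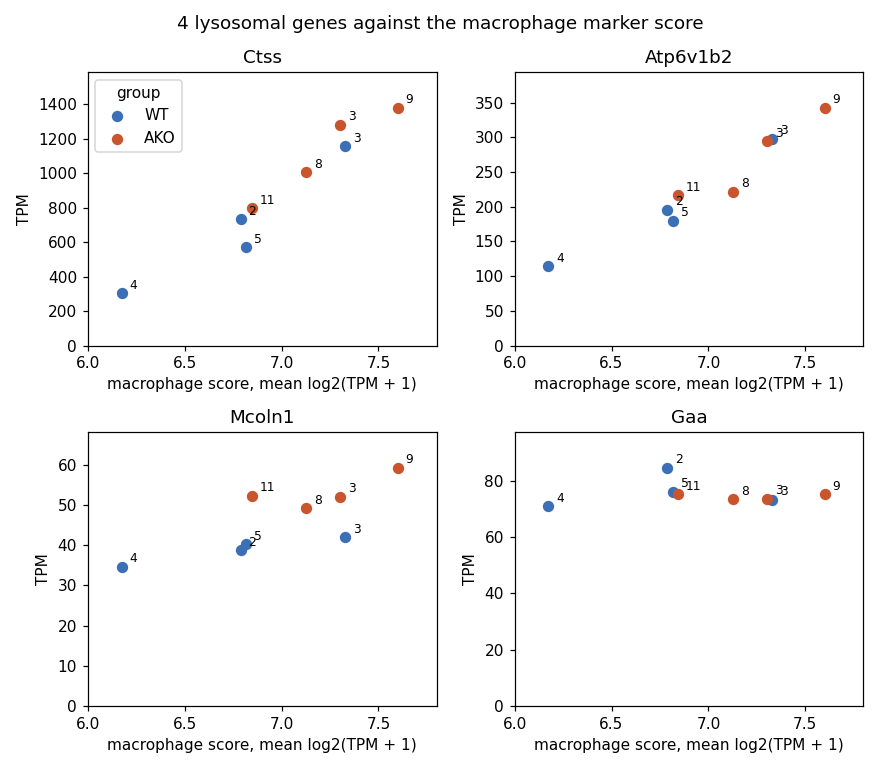
TPM of 4 lysosomal genes (vertical axes, from 0) against the macrophage score (horizontal axes, mean log2(TPM + 1) of 14 markers) in 4 WT and 4 AKO mice, with mouse numbers. Ctss and Atp6v1b2 climb with the score in both groups, Gaa stays between 71.1 and 84.7 TPM, and the AKO mice lie above the WT mice for Mcoln1.

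When the macrophage score was entered as a covariate in limma, an alternative added after the data were seen, the differences between AKO and WT were near 0 for most genes. The median of the 38 genes was -0.04, with 12 differences above 0 and 26 below, and none was called. Mcoln1 was at 0.34 (unadjusted p 0.00161, adjusted p = 0.838 by limma) and was the single lysosomal gene with an unadjusted p below 0.05, against 5.07% of all genes. The 38 genes followed the score within groups too (median r 0.94 with each group centred), and the score was higher on average in AKO. A lowering of most differences was therefore built into this fit, which does not test the part of the score in them. The adipocyte score was not entered as a covariate. Whether the 13 genes with CACGTG near their start moved apart from the rest was not tested; their median difference was 0.21 and their median r with the macrophage score 0.95, against 0.29 and 0.95 for the 20 matched genes without it.

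Other genes of the pathway were read from lists by role. Of 36 other lysosomal hydrolases and their activators, 33 had a difference above 0 (median 0.17) and none was called. An unadjusted p below 0.05 was found for 4 of the 36, against 4.75% of all genes. Groups did not overlap for 1 of the 36, Fuca1, a share near the 2.44% of all genes. Fuca1, which removes fucose, was at 36.9, 40.0, 33.0 and 42.3 TPM in the WT group and at 52.8, 48.5, 52.8 and 43.0 TPM in the AKO group, with no overlap between groups (log2 difference 0.37, SE 0.10, adjusted p = 0.831). Ctsk, a collagen-degrading cathepsin, was at 152, 276, 47.5 and 96.7 TPM in WT and at 320, 256, 423 and 198 TPM in AKO, with overlap (log2 difference 1.28, SE 0.49, adjusted p = 0.831). Of 21 other membrane and lipid transfer proteins, 18 had a difference above 0 (median 0.21), with none called and none at an unadjusted p below 0.05. The battenin gene Cln3 (19.0 ± 5.52 TPM in WT, 25.2 ± 5.78 TPM in AKO, SD, n = 4 each) and Slc15a3, a peptide and histidine carrier (38.1 ± 23.6 and 57.2 ± 13.0 TPM), had the smallest p-values among them. Of 16 other pump subunits and assembly factors, 12 were tested and 8 had a difference above 0 (median 0.17), again with none at an unadjusted p below 0.05. Atp6v1f was at 211 ± 38.4 TPM in WT and 257 ± 18.3 TPM in AKO, and Atp6v1c2 at only 0.927 ± 0.414 and 1.55 ± 0.381 TPM (SD, n = 4 each).

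The machinery that delivers enzymes and cargo showed smaller medians. Of 9 genes of mannose 6-phosphate and sortilin sorting, 6 had a difference above 0 (median 0.09) and none was called. An unadjusted p below 0.05 was found for 1 of the 9, against 4.75% of all genes. It was Gga3, a coat adaptor at the Golgi (9.55 ± 2.16 TPM in WT, 12.9 ± 2.58 TPM in AKO, SD, n = 4 each). Gnptg, a subunit of the enzyme that tags hydrolases, was at 35.2 ± 2.21 and 39.6 ± 2.92 TPM (SD, n = 4 each). Of 22 autophagy genes tested, 14 had a difference above 0 (median 0.02), with none at an unadjusted p below 0.05. Becn1, which starts autophagosomes, was at 136 ± 9.45 TPM in WT and 125 ± 9.89 TPM in AKO (SD, n = 4 each), and Plekhm1, an adaptor for fusion with lysosomes, at 30.7 ± 5.78 and 34.9 ± 5.55 TPM. Of 18 genes tested that control TFEB through mTORC1 and folliculin, 12 had a difference above 0 (median 0.05), with none at an unadjusted p below 0.05. Rragd, a small GTPase of this pathway that TFEB is known to induce, was at 1.01 ± 0.627 TPM in WT and 1.71 ± 0.658 TPM in AKO (SD, n = 4 each). Tsc2, an inhibitor of mTORC1, was at 44.1, 69.1, 48.2 and 44.7 TPM in WT and at 43.7, 42.1, 37.2 and 40.1 TPM in AKO, all AKO mice below all WT mice, with a log2 difference of -0.31 (SE 0.14, adjusted p = 0.831); taken from its highest row alone the difference was 0.06. Groups did not overlap for 2 of the 18, against 2.44% of all genes, and the other was Rheb, the GTPase that activates mTORC1, named after its values were seen. It was at 104 ± 1.62 TPM in WT and 99.4 ± 2.89 TPM in AKO (SD, n = 4 each), a log2 difference of -0.06. With the macrophage score, 18 of the 36 hydrolases, 12 of the 21 membrane proteins, 7 of the 12 pump genes, 5 of the 9 sorting genes, 8 of the 22 autophagy genes and 5 of the 18 mTORC1 genes passed, beside 16.0% of all genes.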

How the data were processed

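The authors deposited 1 table per mouse of TPM values over 152298 rows, per the file headers. HISAT2, DESeq2 and the build mm9 are named in the submitters' processing notes without roles. No quantifier or annotation is named there (not given in the sources used here). Rows were summed per gene identifier, and 401 rows without a gene stayed out. Testing covered genes that reached 1 TPM in 4 or more mice and used limma 3.58.1 (R 4.3.3), with a mean-variance trend, on log2(TPM + 1), adjusted by Benjamini-Hochberg at 0.05. Changes of low genes are understated on this scale. Exact permutation tests were two-sided. Correlations were computed for 14172 genes with the macrophage and adipocyte scores (scipy 1.17.1), with exact permutation p-values over all pairings of the 8 mice. The same was done with a score of the lipid-associated macrophage markers. With that score 2012 genes passed, and 29 of the 38 (median r of the 38 genes 0.93). In simulated data of 14172 genes, changes were given to a sample of the better expressed genes, with noise drawn separately for each gene. Of log2 changes of 1, 85% were recovered, and of log2 changes of 2, 99%, with 7 unchanged genes called. Smaller changes, and a spread over mice shared by many genes as in the lysosomal list, were not simulated. Values per mouse were given for those of the 38 genes with no overlap between groups and, in each role, for the 2 smallest unadjusted p-values and the highest level; 2 genes per other list were named. The members and lists were chosen with earlier results of these data known. Alternatives were another pseudocount, filter and scaling, the highest row per gene and leaving out each mouse. The covariate fit and the test of single rows were added after the data were seen.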

Additional observations from a re-analysis of the deposited data

Results flagged for a closer look

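Of 102 groups of 4 mice checked for a sample far from the other 3, 4 had one; chance gives about 1 in 20. Atp6v0d1, of the pump's V0 sector, was at 171 TPM in AKO mouse 9 and at 144 to 145 TPM in the other AKO mice. Atp6v1d, of its V1 sector, was at 35.4 TPM in AKO mouse 11 and at 48.5 to 49.0 TPM in the others. Becn1 was at 122 TPM in WT mouse 4 and at 139 to 142 TPM in the other WT mice. Tsc2 was at 69.1 TPM in WT mouse 3 and at 44.1 to 48.2 TPM in the other WT mice.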

How the results depend on the processing

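No paired analysis was possible because the groups share only the number 3, on different animals. No lysosomal gene was called under any alternative run; the lowest adjusted p was 0.316 over 570 values. All genes called numbered 4, 2 with a filter of 5 TPM and 1 to 5 without single mice. Lysosomal genes at an unadjusted p below 0.05 numbered 1, 0 from the highest row and 1 to 21 without single mice (21 without WT mouse 3, 4 without AKO mouse 11). With the macrophage covariate the medians were -0.0377 for all 38 genes, 0.042 for proteases, -0.0187 for lipid genes, -0.0225 for membrane proteins, -0.0438 for regulators and -0.0611 for V0. The covariate reversed Ctsa -0.0538, Ctsb -0.0414, Gla -0.0495, Glb1 -0.0444, Gusb -0.0453, Hexa -0.0199, Naglu -0.0195, Neu1 -0.0692, Lipa -0.0442, Grn -0.109, Lamp1 -0.0609, Lamp2 -0.0144, Scarb2 -0.0306, Tfeb -0.104, Tfe3 -0.0438, Atp6v0a1 -0.204, Atp6v0b -0.0062, Atp6v0c -0.0854, Atp6v0d1 -0.0369, Atp6v1a -0.0384, Atp6v1c1 -0.0338, Atp6v1d -0.0879, Atp6v1h -0.139 and Plekhm1 -0.0623. These reversed values had SE from 0.0644 (Hexa) to 0.145 (Atp6v0a1) and adjusted p-values from 0.912 to 0.995 by limma, so their signs are not established. The highest row reversed Gaa (0.0351) and Tsc2 (0.0572), and gave 0.08 for Mcoln1. Without single mice, Gaa ran from -0.0654 to 0.0179, Smpd1 from -0.113 to 0.189, Atp6v1d from -0.0145 to 0.138, Atp6v1e1 from -0.0736 to 0.0044 and Atp6v1h from -0.0628 to 0.105. Genes correlated with the macrophage score numbered 2272, 1375 by Spearman, 0 without the farthest 2 mice, 0 with groups centred and 0 to 2085 without single mice (917 without AKO mouse 9, 1245 without AKO mouse 3, 1256 without WT mouse 3, 0 without WT mouse 4). Those of the 38 numbered 29, 23 by Spearman, 0, 0 and 0 to 29. With the adipocyte score genes numbered 2548, 326, 0, 0 and 0 to 2557, and those of the 38 29, 11, 0, 0 and 0 to 30 (12 without AKO mouse 9, 17 without AKO mouse 3, 0 without WT mouse 4). The farthest 2 mice for the adipocyte score were WT mouse 3 and AKO mouse 9. In the macrophage relation, r of Gaa was -0.0714 by Spearman, -0.696 without the farthest 2 mice and -0.551 to 0.459 without single mice, that of Smpd1 0.127 without the farthest 2 and -0.957 to 0.128 without single mice, and that of Atp6v1e1 -0.192 to 0.168 without single mice. In the adipocyte relation, Gaa was at -0.0635 without the farthest 2 mice, -0.0260 centred and -0.275 to 0.481 without single mice, and Smpd1 -0.188 to 0.911. The cause was not tested where the number of samples did not change. TPM keeps no depth, so the precision of low genes is unknown.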

Other observations

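Beneath the gene sums, 272 table rows belong to the 38 genes and 135 of them were tested. None was called by limma, and 16 (11.9%) had an unadjusted p below 0.05, against 5.56% of all 33323 rows tested. Beside row 4 of Mcoln1, 3 rows had groups that did not overlap and an unadjusted p below 0.05, which makes 2.96% of the 135 rows against 2.3% of all rows tested. That share is near the background, and the 3 rows are named after their values were seen. Row 1 of Ctsd, 1.60% of the gene's level, was at 16.8, 26.4, 3.12 and 23.7 TPM in the WT group and at 133, 27.8, 50.6 and 96.5 TPM in the AKO group (adjusted p = 0.833 by limma). Row 1 of Ctsh was at 10.2 ± 0.758 TPM in WT and 15.0 ± 2.51 TPM in AKO, and row 6 of Atp6v0b at 9.69 ± 1.80 and 14.2 ± 3.09 TPM (SD, n = 4 each). For 9 of the 38 genes, a row stood at 0 in some libraries and at 5 TPM or more in another. In 17 of the 38 genes a single row held over 90% of the level, so that the sum and the row are nearly the same there.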
